A study of Mus musculus with 10 samples.

Results

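The contractile apparatus of smooth muscle was described through 31 genes, chosen by name as genes for contraction and for the cytoskeleton of mature smooth muscle cells, out of 35667 genes counted. All 31 had enough reads to be tested, among 15710 tested genes in all. RNA came from the aorta, the trunk artery of the body, of C57BL/6 mice that were 12 weeks old. Of 10 libraries, 5 had the label knockout (KO) for the gene Ovgp1, which encodes a secreted glycoprotein known from the oviduct, while the other 5 carried the label wild type (WT). The labels give no allele, promoter or Cre line. They also do not say whether the libraries within a group stand for different animals, so each p-value measures the spread between these libraries alone. By its title, the study asked how Ovgp1 bears on blood pressure and on remodelling of the vessel wall through MYH9, a non-muscle myosin heavy chain.

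Smooth muscle cells of an artery set its bore by sliding thin filaments of actin over filaments of myosin. Calcium drives this by activating myosin light chain kinase, which phosphorylates the regulatory light chain. A phosphatase reverses that step, and its inhibition keeps a vessel contracted at a given calcium level. Caldesmon, calponin and tropomyosin lie along the thin filament, and dense bodies, which hold alpha-actinin and filamin, anchor the filaments and tie them to a scaffold of desmin and vimentin. Many genes of the apparatus are switched on together by serum response factor (SRF) and its coactivator myocardin, which act through a short DNA element called the CArG box. Loss of the products is the usual sign that smooth muscle cells are leaving the contractile state.

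The libraries labelled KO went against their label. Ovgp1 had 21.9, 19.5, 17.98, 19.96 and 17.8 counts per 1000000 (CPM, scaled by TMM factors) in libraries labelled KO 1 to 5, against 4.57, 3.89, 4.69, 1.98 and 3.34 CPM in libraries labelled WT 1 to 5. The genotype field names Ovgp1 for KO 1 only, and Ovgp2 to Ovgp5 for KO 2 to 5. Libraries labelled KO were also close to copies of each other. Between pairs of libraries, the chi-square per degree of freedom over 12509 genes, which is 1 where counting error alone separates them, was 1.77 to 3.25 in the group labelled KO and 11.03 to 154 in the group labelled WT. Total counts were 24434745 to 26694590 per library labelled KO and 21242030 to 24396394 per library labelled WT. Because of the near copies, each comparison was made both with 5 libraries against 5 and with the libraries labelled KO summed into 1 sample (the summed fit), where the spread comes from the libraries labelled WT alone. All p-values are from the quasi-likelihood test of edgeR, adjusted by Benjamini-Hochberg over all tested genes with a threshold of 0.05.

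Of the 31 contractile genes, 5 were higher and 1 was lower in libraries labelled KO than in those labelled WT in the 5 against 5 test, and 25 did not pass. Sncg, Mylk, Cald1, Synm and Mustn1 rose and Tagln fell. These 6 are 19.4% of the members, beside 14.3% of all tested genes called in that test, 6.84% higher and 7.43% lower. With the libraries labelled KO as 1 sample, 0 members passed, beside 0.0446% of all tested genes. In that fit the smallest adjusted p of a member was 0.999 and 1 member, Sncg, had an unadjusted p below 0.05, beside 3.72% of all tested genes, 2.36% higher and 1.36% lower. The differences were small. They ran from -0.25 to 0.59 on the log2 scale (KO minus WT) with a median of 0.07, against a median of -0.02 over all tested genes and a range of -0.53 to 0.56 between their 5th and 95th percentiles. A positive difference was found in 19 members, which is 61.3%, beside 45.8% of all tested genes. In bulk tissue, fewer cells of a type and less RNA per cell cannot be told apart.

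**Figure D1:**
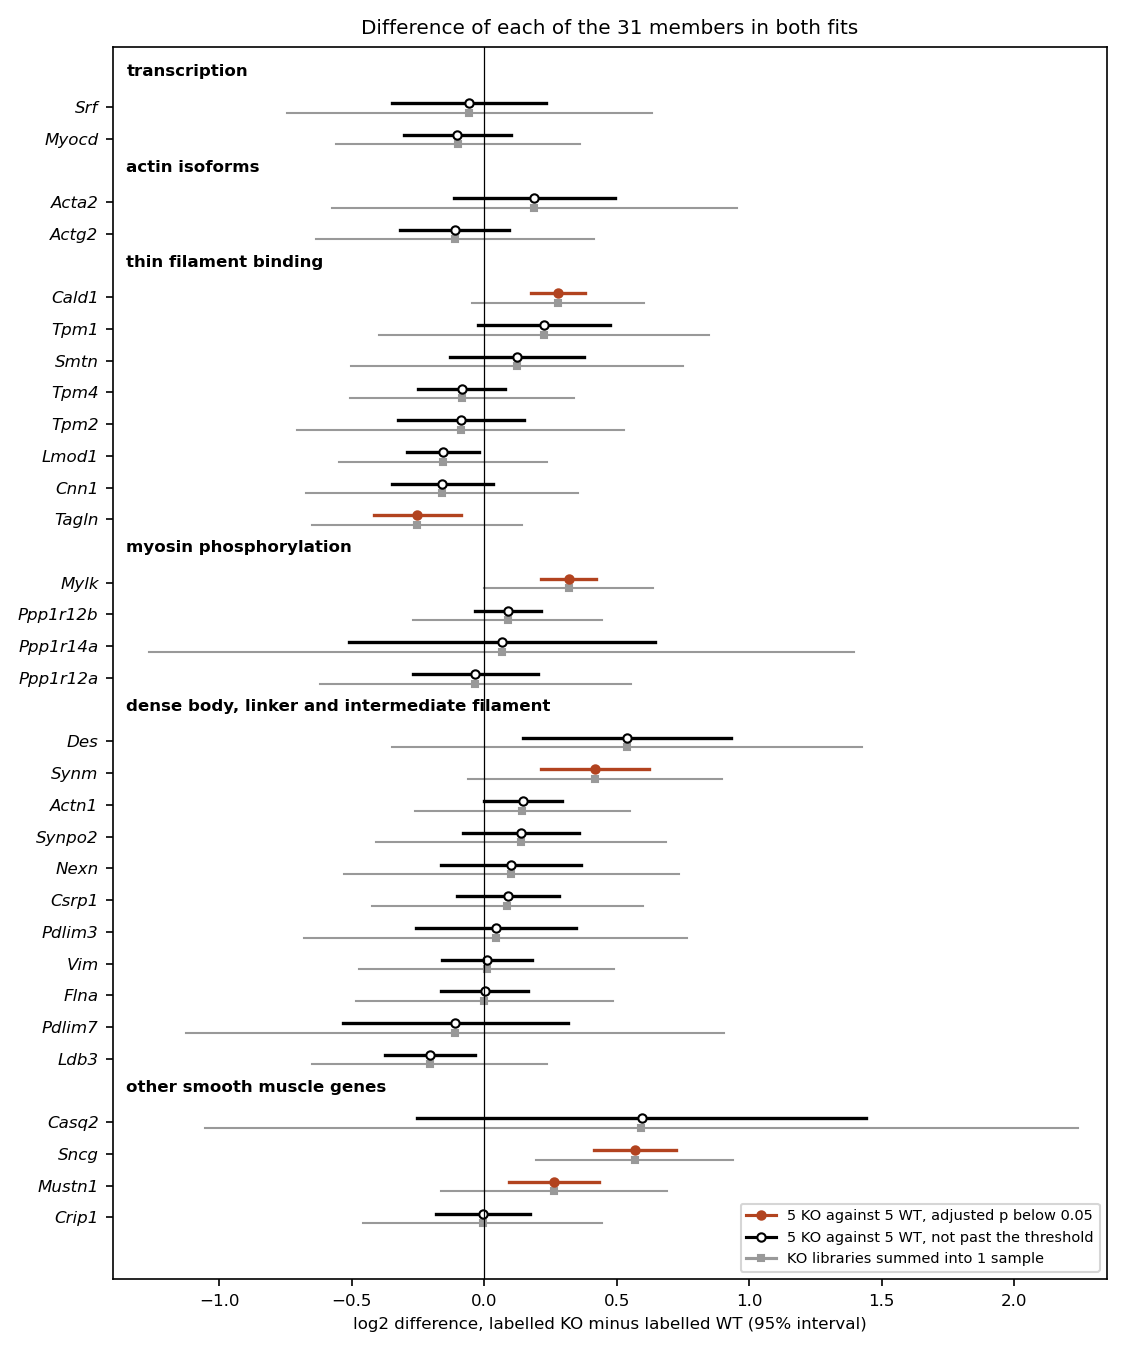
Difference between 5 libraries labelled KO and 5 labelled WT for each of the 31 genes, on the log2 scale (KO minus WT), grouped by role, with bars for the 95% interval. Circles stand for the 5 against 5 fit, filled where the adjusted p was below 0.05, and grey squares for the fit with the libraries labelled KO as 1 sample, whose intervals are wider and exclude 0 for Sncg alone.

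In 6 members, Cald1, Mylk, Des, Synm, Sncg and Mustn1, every library labelled KO lay above every library labelled WT, beside 7.38% of all tested genes. Every library labelled KO lay below every library labelled WT in 0 members, beside 7.22% of all tested genes. The spread between libraries differed too. The coefficient of variation of a member was 0.739 to 32.5% among libraries labelled KO, with a median of 1.54%, and 2.66 to 55.3% among libraries labelled WT, with a median of 14.2%. Libraries labelled KO had the smaller SD in 31 of 31 members. Casq2, the member with the highest coefficient in both groups, had 49, 24, 44, 40 and 26 counts in libraries labelled KO, against 24, 37, 4, 19 and 19 counts in libraries labelled WT, so counting error weighs on it.

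**Figure D2:**
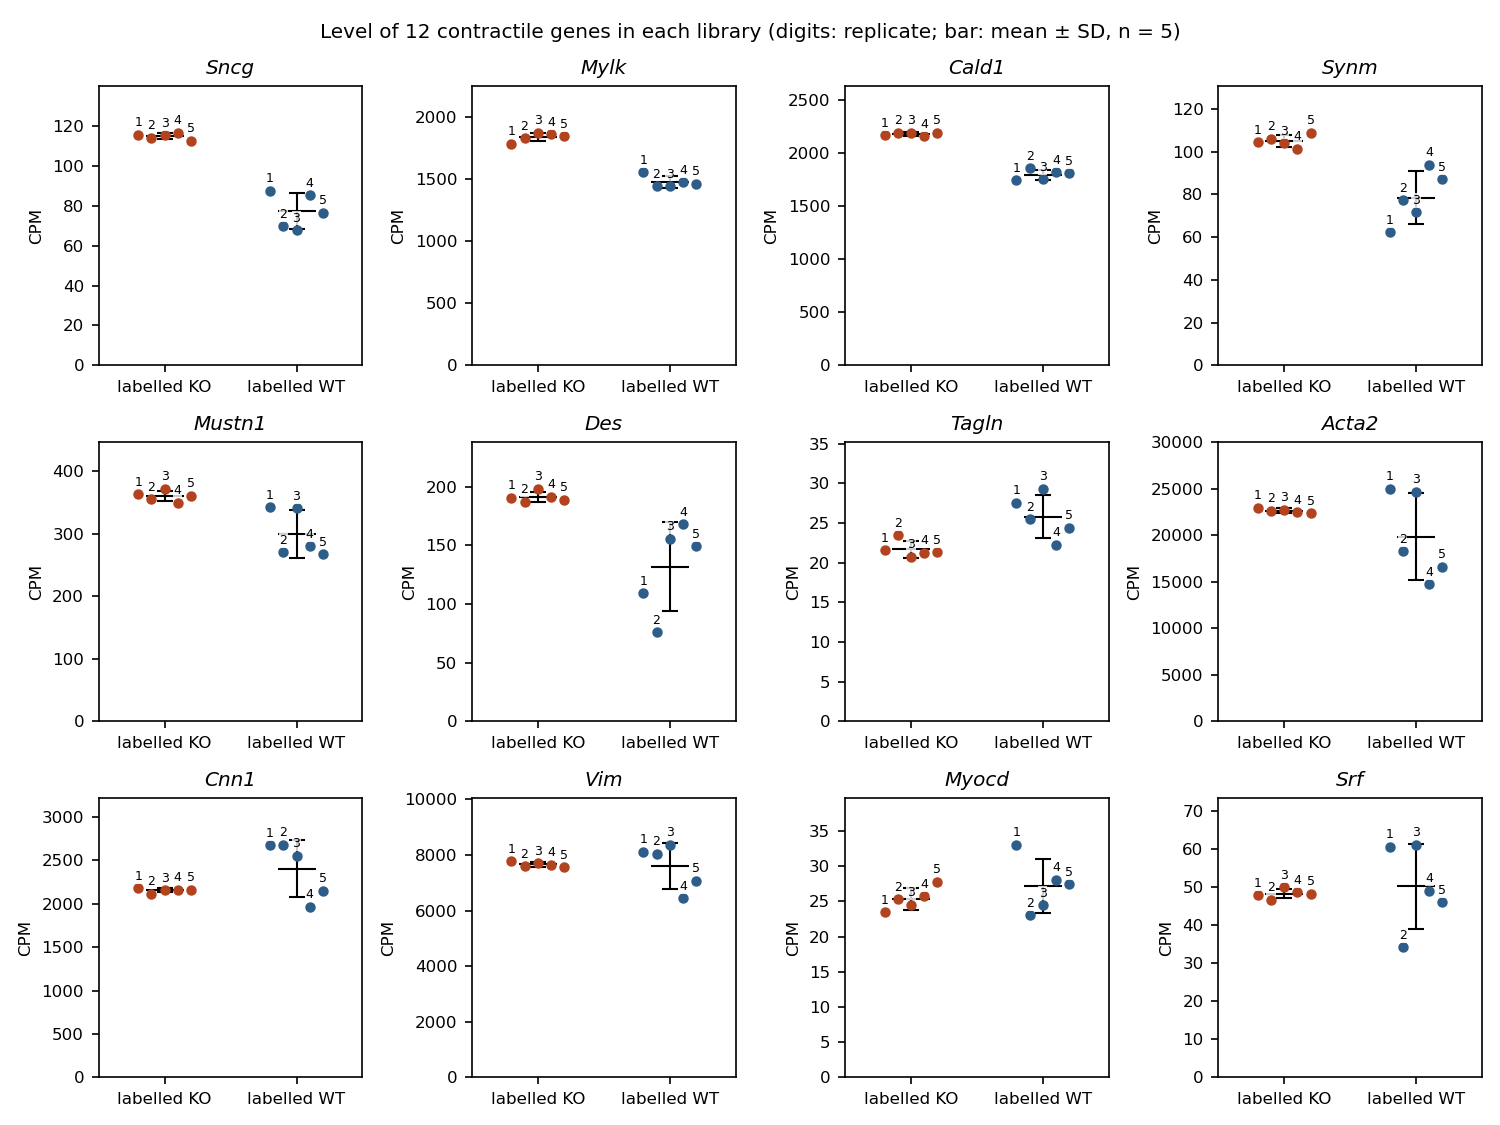
CPM of 12 of the genes in each library, with digits for the replicate number and bars for mean ± SD (n = 5 libraries a group), labelled KO at left and labelled WT at right. The points labelled KO lie close together in each panel, while those labelled WT spread, most for Acta2, Des and Srf.

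The regulators of the programme were at low levels that overlapped between groups. Myocd (ENSMUSG00000020542, chr11:65176561-65269989 in GRCm38), the gene of the coactivator myocardin, had 23.5, 25.3, 24.5, 25.7 and 27.8 CPM in libraries labelled KO, against 33.1, 23.01, 24.5, 28.1 and 27.4 CPM in libraries labelled WT. Its log2 difference was -0.10 (SE 0.09, adjusted p = 0.504), and WT 1 was the highest library. Srf (ENSMUSG00000015605, chr17:46548329-46556175), whose product binds the CArG box, had 47.8, 46.7, 49.9, 48.6 and 48.3 CPM in libraries labelled KO, against 60.6, 34.2, 61.2, 49.1 and 46.02 CPM in libraries labelled WT. WT 2 and WT 5 lay below and WT 1 and WT 3 lay above all libraries labelled KO, and the log2 difference was -0.06 (SE 0.13, adjusted p = 0.8199). With the libraries labelled KO as 1 sample, the 95% interval of the fold was 0.68 to 1.28 for Myocd and 0.60 to 1.55 for Srf.

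Promoter windows from RefSeq (GRCm38.p6, 250 bases before to 50 after a start) were found for 27 of the 31 genes and not for Myocd, Nexn, Actg2 and Tagln. They were searched on both strands for the CArG box. An exact box stood in the window of 2 of 27 genes (7.41%), Srf and Ldb3, beside 488 of 27025 genes with a window (1.81%). With 1 of the central bases allowed to be G or C, boxes stood in 6 of 27 (22.2%), beside 3050 of 27025 (11.3%), the added genes being Acta2, Synm, Pdlim3 and Crip1. The windows of Srf and Ldb3 are shown for their exact boxes and those of Acta2 and Synm for boxes with such a change. Those of Sncg and Mylk, the members of smallest adjusted p, are shown because neither form of the box was found there. Each reads 5′ to 3′ on the strand of the gene, with the boxes in capitals. They are chr17:46556113-46556412, chr14:34588632-34588931, chr19:34255324-34255623, chr7:67759693-67759992 and chr14:34374620-34374919 on the minus strand and chr16:34784700-34784999 on the plus strand.
Srf: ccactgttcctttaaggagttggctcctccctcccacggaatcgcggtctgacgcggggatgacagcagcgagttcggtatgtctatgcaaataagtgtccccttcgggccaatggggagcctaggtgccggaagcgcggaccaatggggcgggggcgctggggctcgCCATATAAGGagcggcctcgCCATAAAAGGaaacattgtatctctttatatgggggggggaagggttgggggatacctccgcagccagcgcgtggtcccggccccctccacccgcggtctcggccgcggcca
Ldb3: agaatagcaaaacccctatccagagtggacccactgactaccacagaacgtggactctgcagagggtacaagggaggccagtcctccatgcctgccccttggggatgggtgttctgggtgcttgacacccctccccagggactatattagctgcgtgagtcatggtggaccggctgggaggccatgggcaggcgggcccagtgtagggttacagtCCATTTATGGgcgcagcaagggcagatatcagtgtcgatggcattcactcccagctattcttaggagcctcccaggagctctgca
Acta2: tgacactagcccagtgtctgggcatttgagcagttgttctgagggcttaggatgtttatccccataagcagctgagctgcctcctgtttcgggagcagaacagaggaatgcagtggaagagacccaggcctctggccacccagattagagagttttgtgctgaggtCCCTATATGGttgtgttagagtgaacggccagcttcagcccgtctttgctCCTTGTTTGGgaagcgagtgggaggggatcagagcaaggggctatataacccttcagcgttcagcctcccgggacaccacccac
Synm: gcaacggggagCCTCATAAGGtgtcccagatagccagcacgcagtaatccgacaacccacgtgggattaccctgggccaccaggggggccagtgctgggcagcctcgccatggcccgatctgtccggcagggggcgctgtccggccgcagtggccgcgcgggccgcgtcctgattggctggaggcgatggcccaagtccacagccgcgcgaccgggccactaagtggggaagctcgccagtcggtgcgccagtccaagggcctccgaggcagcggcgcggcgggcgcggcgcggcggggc
Sncg: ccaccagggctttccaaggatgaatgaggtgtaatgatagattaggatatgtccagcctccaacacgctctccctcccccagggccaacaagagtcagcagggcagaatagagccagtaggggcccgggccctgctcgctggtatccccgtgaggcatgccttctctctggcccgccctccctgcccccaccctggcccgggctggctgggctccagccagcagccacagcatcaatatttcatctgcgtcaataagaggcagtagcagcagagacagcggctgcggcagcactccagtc
Mylk: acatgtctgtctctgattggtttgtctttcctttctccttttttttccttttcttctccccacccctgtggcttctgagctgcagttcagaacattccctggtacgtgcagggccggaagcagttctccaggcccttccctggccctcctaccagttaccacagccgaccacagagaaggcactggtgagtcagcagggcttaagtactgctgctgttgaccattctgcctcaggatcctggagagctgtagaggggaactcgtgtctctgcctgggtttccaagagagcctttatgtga
In Srf the first bases of the boxes lie at -82 and -62 from the start, in Acta2 at -84 and -34, and in Synm at -239. A match is a description of the letters and not of bound SRF. Of the genes with a box of either form, Synm alone was called in the 5 against 5 test.

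Of the actins, neither passed the test. Acta2 (ENSMUSG00000035783, chr19:34241090-34255590), the gene of smooth muscle alpha-actin and the main actin of the arterial wall, had 22968, 22659, 22764, 22496 and 22404 CPM in libraries labelled KO, against 25019.6, 18266, 24697, 14722 and 16639 CPM in libraries labelled WT. All libraries labelled KO lay between WT 1 and WT 3 above and WT 2, WT 4 and WT 5 below. The log2 difference was 0.19 (95% interval -0.11 to 0.49, adjusted p = 0.395), and with the libraries labelled KO as 1 sample the fold had a 95% interval of 0.67 to 1.94. Per kilobase of exon, Acta2 stood at 10318 CPM in libraries labelled KO and 9048 CPM in libraries labelled WT, which ranked it 3 among all genes in the group labelled KO and 6 in the group labelled WT. Actg2, the gamma-actin of enteric smooth muscle, averaged 407 ± 4.202 CPM in libraries labelled KO and 439 ± 73.2 CPM in libraries labelled WT (SD, n = 5 each), with a log2 difference of -0.11 and an adjusted p of 0.474. The coding sequences of the actins are close to identical, and how reads matching several genes were counted is not given in the sources used here.

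Cald1 was the member of the thin filament that rose. It encodes caldesmon, which binds actin and tropomyosin and restrains the myosin ATPase. Cald1 (ENSMUSG00000029761, chr6:34598500-34775473) had 2162, 2189, 2189, 2154 and 2189 CPM in libraries labelled KO, against 1742, 1857, 1750.1, 1814 and 1806 CPM in libraries labelled WT. The groups did not overlap, and the difference was 0.28 on the log2 scale (SE 0.05, 95% interval 0.18 to 0.38), a 1.21-fold higher level with an adjusted p of 0.00327. In the summed fit, the fold had a 95% interval of 0.97 to 1.52 (unadjusted p = 0.0829). Caldesmon is made in a long smooth muscle form and a short form found in many cells, which counts per gene do not separate.

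Tagln was the member that fell, on few reads. It encodes transgelin (SM22-alpha), an actin-binding protein of smooth muscle. Tagln (ENSMUSG00000032085, chr9:45929619-45936058) had 21.6, 23.5, 20.8, 21.3 and 21.3 CPM in libraries labelled KO, against 27.6, 25.5, 29.3, 22.3 and 24.4 CPM in libraries labelled WT. WT 4 lay below KO 2, so the groups overlapped. The difference was -0.25 on the log2 scale (SE 0.08, 95% interval -0.42 to -0.09, adjusted p = 0.0458). The call was lost without any 1 of the libraries labelled KO (adjusted p 0.0575 to 0.110), without WT 1 (0.107), WT 2 (0.0687), WT 3 (0.0715) or WT 5 (0.0583), and with RLE size factors (0.0560). The 95% interval of the fold in the summed fit was 0.64 to 1.10. Per kilobase of exon, Tagln stood at 10.9 CPM in libraries labelled KO and 12.99 CPM in libraries labelled WT, and Acta2 stood 946 times higher than Tagln in libraries labelled KO and 697 times higher in libraries labelled WT. Tagln ranked 29 of the 31 members by this measure, although its product is an abundant protein of arterial smooth muscle. In GENCODE M21, 67.9% of its exon bases are shared with genes on the opposite strand, 62.4% with Gm48529 (not analysed here) and 5.43% with Pcsk7, a protease gene that had 36.5 to 38.6 CPM in libraries labelled KO and 36.2 to 48.8 CPM in libraries labelled WT. The strand setting of the counting is not given in the sources used here, and the part of this overlap in the level or in the difference of Tagln was not tested.

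The other thin filament genes did not pass. Cnn1, the gene of calponin, an inhibitor of the myosin ATPase, had 2177, 2114, 2155, 2162 and 2159.8 CPM in libraries labelled KO, against 2669, 2679.6, 2553, 1964 and 2149.7 CPM in libraries labelled WT. WT 1, WT 2 and WT 3 lay above all libraries labelled KO, WT 5 lay among them and WT 4 lay below. Its log2 difference was -0.16 (SE 0.09, adjusted p = 0.253). Lmod1 encodes leiomodin, which starts new actin filaments in smooth muscle. Its log2 difference was -0.16 (adjusted p = 0.12), and it was called lower without WT 4 (adjusted p = 0.0427). Smtn, the gene of smoothelin, an actin-associated protein of contractile cells, had a log2 difference of 0.12 (adjusted p = 0.518). Among the tropomyosins, which set the access of myosin to actin, log2 differences were 0.23 for Tpm1, -0.09 for Tpm2 and -0.08 for Tpm4, with adjusted p-values of 0.215, 0.644 and 0.493. Tpm4 was called lower without WT 3 (adjusted p = 0.0383), and the sign for Tpm2 turned without WT 3.

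Mylk was the member of the phosphorylation switch that rose. It encodes myosin light chain kinase, the calcium-activated enzyme that starts contraction. Mylk (ENSMUSG00000022836, chr16:34745210-35002420) had 1783, 1829, 1872, 1858 and 1843 CPM in libraries labelled KO, against 1552, 1442, 1442, 1472 and 1460.0 CPM in libraries labelled WT. The lowest library labelled KO lay above the highest labelled WT, which was WT 1. The difference was 0.32 on the log2 scale (SE 0.05, 95% interval 0.21 to 0.42), a 1.25-fold higher level with an adjusted p of 0.00181. The summed fit gave the fold a 95% interval of 0.999 to 1.56 (unadjusted p = 0.051). The Mylk gene also makes a non-muscle long kinase and the kinase-free product telokin, and 6.85% of its exon bases are shared with antisense genes. The RefSeq window shown above for Mylk lies inside the gene as GENCODE M21 draws it, downstream of its outermost start.

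The phosphatase side did not pass. Ppp1r12a, the targeting subunit MYPT1 that brings the phosphatase to myosin, averaged 680.0 ± 11.8 CPM in libraries labelled KO and 696 ± 129.8 CPM in libraries labelled WT. Ppp1r12b, the related subunit MYPT2, averaged 1034 ± 8.29 CPM in libraries labelled KO and 972 ± 69.7 CPM in libraries labelled WT (SD, n = 5 each). Their adjusted p-values were 0.874 and 0.324, and Ppp1r12b was called higher without WT 2 (0.0418). Ppp1r14a encodes CPI-17, the inhibitor through which protein kinase C holds back this phosphatase. Its level was 364 to 383 CPM in libraries labelled KO, against 536, 247, 529, 201 and 262 CPM in libraries labelled WT 1 to 5. WT 1 and WT 3 lay above and the other libraries labelled WT below all libraries labelled KO, a 2.67-fold range within the group labelled WT, so a log2 difference of 0.07 had an SE of 0.26 (adjusted p = 0.897).

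Among intermediate filament genes, Synm rose and Des had a difference of like size that did not pass. Synm encodes synemin, which links desmin and vimentin filaments to adhesion sites. Synm (ENSMUSG00000030554, chr7:67730160-67759742) had 104, 106, 104, 101 and 109 CPM in libraries labelled KO, against 62.3, 77.3, 71.6, 93.9 and 87.1 CPM in libraries labelled WT. The groups did not overlap, with WT 4 the nearest to the libraries labelled KO. The log2 difference was 0.42 (SE 0.09, 95% interval 0.22 to 0.62), a 1.34-fold higher level with an adjusted p of 0.0131. In the summed fit, the fold had a 95% interval of 0.96 to 1.86 (unadjusted p = 0.0776). Des, the gene of desmin, the muscle intermediate filament, had 190.4, 187, 198, 191 and 189 CPM in libraries labelled KO, against 109, 76.1, 156, 168 and 149 CPM in libraries labelled WT. The groups did not overlap here either, but the libraries labelled WT spread widely, with WT 2 the lowest. The log2 difference was 0.54 (SE 0.18, 95% interval 0.14 to 0.93, adjusted p = 0.0687), and Des was called higher without WT 2 (0.0187), without WT 4 (0.0383) and by DESeq2 (0.0150).

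Vim, the gene of vimentin, the intermediate filament of fibroblasts, endothelium and most smooth muscle of the aorta, had 7775, 7602, 7707, 7647 and 7569 CPM in libraries labelled KO, against 8118, 8044, 8372, 6438 and 7072 CPM in libraries labelled WT. The libraries labelled KO lay within the range of those labelled WT, and the log2 difference was 0.01 (SE 0.08, adjusted p = 0.951). Striated muscle also makes desmin, synemin and the product of Mustn1. Of 30 striated muscle markers, 20 were tested and 0 passed with edgeR, 2 having an unadjusted p below 0.05. DESeq2 called 0 of them and limma-voom 7, beside 6477 of all 15710 tested genes called by limma-voom. Their summed level was 564 to 584 CPM in libraries labelled KO and 433 to 702 CPM in libraries labelled WT, and none was at 0 in all libraries. Myh6, a myosin heavy chain of heart muscle, had 13.04, 12.1, 13.03, 14.6 and 12.4 CPM in libraries labelled KO, against 0.906, 59.8, 0.898, 1.69 and 10.9 CPM in libraries labelled WT, and was highest in WT 2. The part of striated muscle in these levels was not tested.

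None of the dense body and linker genes passed. They were Synpo2, Ldb3, Pdlim3, Pdlim7, Flna, Csrp1, Actn1 and Nexn, with log2 differences of -0.20 to 0.14. Flna, the gene of filamin A, which cross-links actin and ties it to integrins, averaged 10843 ± 80.1 CPM in libraries labelled KO and 10833 ± 1133 CPM in libraries labelled WT (SD, n = 5 each), a log2 difference of 0.00. Actn1, the gene of the alpha-actinin of dense bodies, had a log2 difference of 0.14 (adjusted p = 0.176) and Synpo2, the gene of an actin-bundling partner of alpha-actinin and filamin, one of 0.14 (adjusted p = 0.387). Ldb3, whose product binds alpha-actinin, had a log2 difference of -0.20 (adjusted p = 0.102) and was called lower without WT 4 (0.0363). Csrp1, a LIM protein expressed with the contractile genes, had a log2 difference of 0.09 (adjusted p = 0.546), and Nexn, the gene of the actin-binding protein nexilin, one of 0.10 (adjusted p = 0.6202). The PDZ-LIM genes Pdlim3 and Pdlim7, whose products bind alpha-actinin or tropomyosin, had log2 differences of 0.04 and -0.11 (adjusted p = 0.865 and 0.755). Pdlim7 had 417 to 432 CPM in libraries labelled KO, against 601, 299.8, 646, 354 and 383 CPM in libraries labelled WT, where WT 1 and WT 3 lay far above the others.

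Sncg was the member of smallest p in both fits. It encodes gamma-synuclein, a small protein of peripheral neurons that arterial smooth muscle also expresses. Sncg (ENSMUSG00000023064, chr14:34370274-34374789) had 116, 114, 115, 117 and 113 CPM in libraries labelled KO, against 87.5, 69.7, 67.9, 85.3 and 76.5 CPM in libraries labelled WT. The groups were well apart, the lowest library labelled KO at 113 CPM and the highest labelled WT, WT 1, at 87.5 CPM. The log2 difference was 0.57 (SE 0.07, 95% interval 0.41 to 0.72), a 1.48-fold higher level with an adjusted p of 0.000584. The 95% interval of the fold in the summed fit was 1.15 to 1.92, with an unadjusted p of 0.00825 that did not pass after adjustment. Of 10 peripheral nerve markers, 5 rose and 0 fell in the 5 against 5 test, beside 6.84% of all tested genes higher and 7.43% lower. Their summed level was 472 to 491 CPM in libraries labelled KO and 381 to 588 CPM in libraries labelled WT. No marker was at 0 in all libraries. With the libraries labelled KO as 1 sample, 0 nerve markers passed and 5 had an unadjusted p below 0.05. The part of nerve in the difference of Sncg was not tested.

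Mustn1, which encodes a small nuclear protein of muscle and skeletal tissue, rose by a smaller amount. It had 364, 356, 373, 350.3 and 362 CPM in libraries labelled KO, against 343, 271, 341, 280.1 and 268 CPM in libraries labelled WT. WT 1 and WT 3 came within 10 CPM of the lowest library labelled KO. The log2 difference was 0.26 (SE 0.08, 95% interval 0.09 to 0.43, adjusted p = 0.0433). The call was lost without any 1 of the libraries labelled KO (adjusted p 0.0786 to 0.0997) and without WT 2 (0.0608), WT 4 (0.0697) or WT 5 (0.0927). The summed fit gave the fold a 95% interval of 0.89 to 1.61. Crip1, a small LIM protein, had a log2 difference of -0.01 (adjusted p = 0.973), and Casq2, the calcium store protein calsequestrin 2, one of 0.59 (SE 0.39, adjusted p = 0.338).

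Ratios of related members within a library do not depend on how libraries are scaled. Tpm2 over Tpm1 was 1.14, 1.13, 1.14, 1.09 and 1.102 in libraries labelled KO, against 1.27, 1.47, 1.46, 1.401 and 1.38 in libraries labelled WT. Every library labelled KO lay below every library labelled WT, with a mean of 1.12 ± 0.0223 in libraries labelled KO and 1.396 ± 0.0824 in libraries labelled WT (SD, n = 5 each). The kinase gene over the sum of both phosphatase subunit genes, Mylk over Ppp1r12a plus Ppp1r12b, was 1.04, 1.05, 1.097, 1.09 and 1.09 in libraries labelled KO, against 0.912, 0.839, 0.811, 0.961 and 0.908 in libraries labelled WT. Here every library labelled KO lay above, and Mylk was itself called higher while neither subunit gene passed. The other ratios overlapped. Des over Vim was 0.0245, 0.0246, 0.0257, 0.02502 and 0.0249 in libraries labelled KO, against 0.0135, 0.00946, 0.0186, 0.0261 and 0.0211 in libraries labelled WT, and WT 4 lay above all libraries labelled KO. Actg2 over Acta2, Tpm4 over Tpm1 and Ppp1r12b over Ppp1r12a overlapped too, each with its widest values among libraries labelled WT. The ratios are descriptions of read counts and were not tested, and no share over other gene pairs was taken for comparison. Since libraries labelled KO were close to copies of each other, their 5 values do not count as separate samples.

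**Figure D3:**
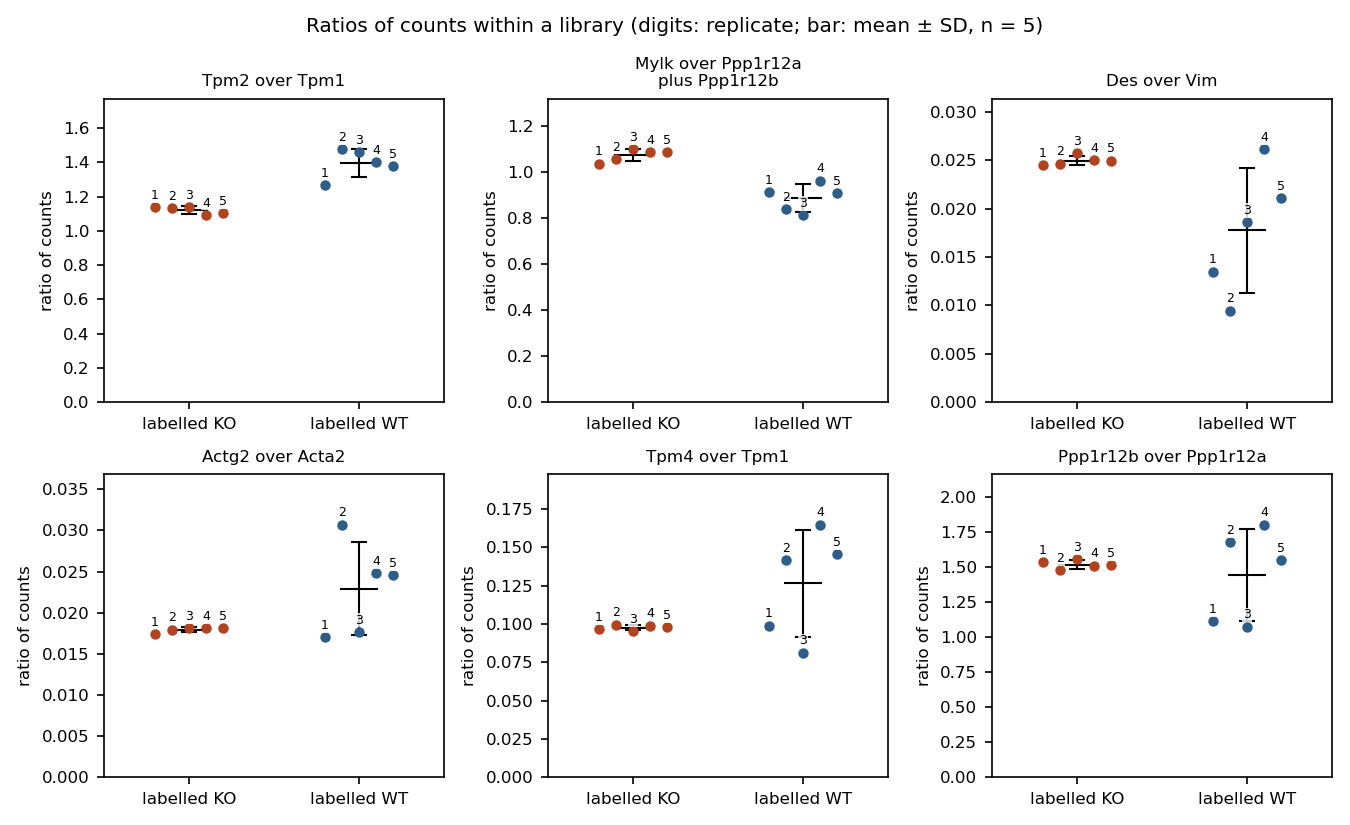
Ratio of the counts of related members in each library, with digits for the replicate number and bars for mean ± SD (n = 5 libraries a group), labelled KO at left and labelled WT at right. Tpm2 over Tpm1 and Mylk over its phosphatase subunits have groups that do not overlap, while in the other panels the points labelled KO lie within the range of those labelled WT.

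Within the group labelled WT, the contractile genes split the libraries. WT 1 and WT 3 were set apart by their share of counts from mitochondrial transcripts, which was 7.61 to 7.88% in libraries labelled KO, 16.2% and 13.2% in WT 1 and WT 3, and 6.75 to 9.59% in the other libraries labelled WT. WT 1 and WT 3 lay above the other 3 libraries labelled WT in 18 of 31 members (58.1%), beside 22.8% of all tested genes, and below them in 4, Cald1, Tpm4, Ppp1r12b and Synm, beside 23.3%. In 9 of the 18, all libraries labelled KO lay in between, beside 2.02% of all tested genes: Acta2, Tpm1, Ppp1r12a, Ppp1r14a, Pdlim3, Pdlim7, Flna, Csrp1 and Nexn. The members took 6.82 to 6.91% of all counts in libraries labelled KO, and 6.51, 6.10, 6.91, 5.25 and 5.64% in WT 1 to 5. Among markers of other cells, WT 1 and WT 3 both lay below the other 3 libraries labelled WT in 9 of 10 endothelial genes. The same held in 4 of 10 adipocyte, 8 of 15 fibroblast, 6 of 10 macrophage and 7 of 20 tested striated muscle markers. It held in 3 of 7 tested lymphocyte, 1 of 10 nerve and 0 of 5 red cell markers, beside the 23.3% of all tested genes. Of 10 genes listed as marks of smooth muscle cells outside the contractile state, it held in 8. The endothelial genes summed to 299.9 to 315 CPM in libraries labelled KO and 235, 553, 169, 722 and 586 CPM in WT 1 to 5, and the adipocyte genes, of which Fabp4 was the most abundant, to 920.3 to 965 CPM in libraries labelled KO and 716, 859.9, 541, 2502 and 1888 CPM in WT 1 to 5. No marker of the endothelial or adipocyte list was at 0 in all libraries. The part of any of these cells, or of the mitochondrial share, in the split was not tested.

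**Figure D4:**
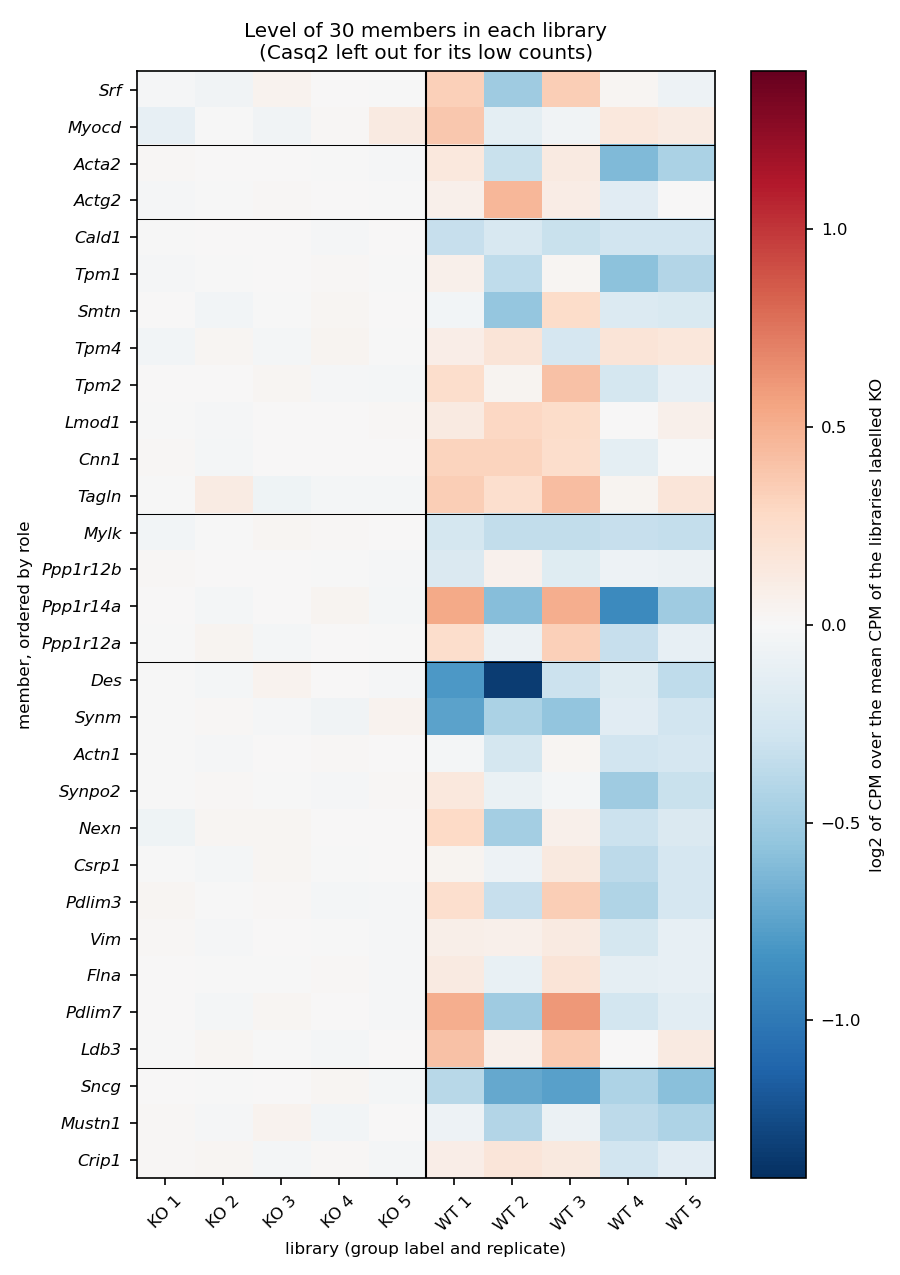
Level of 30 of the genes in each library (rows, Casq2 left out for its low counts) as log2 of its CPM over the mean of the libraries labelled KO, labelled KO at left and labelled WT at right. The columns labelled KO stay near 0 in every row, while WT 1 and WT 3 are high together in Srf, Ppp1r14a and Pdlim7 and Des is lowest in WT 2.

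The calls depended on these libraries. Without WT 1 and WT 3, a choice made with earlier results of these data known, 17 of 31 members passed, 16 higher and 1, Tpm4, lower, beside 27.2% of all genes tested in that fit, 13.7% higher and 13.6% lower. Acta2 then had a log2 difference of 0.47 (adjusted p = 0.00106), Tpm1 one of 0.46 (adjusted p = 0.000210) and Ppp1r14a one of 0.67 (adjusted p = 9.76e-05). Every library labelled KO lay above the remaining 3 labelled WT in 18 members, beside 15.3% of all tested genes. WT 1 and WT 3 had been above the other libraries labelled WT in 18 members, so leaving them out raised those differences by construction. The 9 members with all libraries labelled KO in between had to come out above, so this fit is no separate support for a difference. Tagln was no longer called (adjusted p = 0.150). Sncg, Mylk, Cald1 and Synm passed in that fit and also without each single library of either group.

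Other genes of the pathway were counted from lists. Their calls in the 5 against 5 test stand beside 6.84% of all tested genes higher and 7.43% lower. Of 14 genes for the myosin chains and their regulation, 0 rose and 1 fell. That was Rock2, a kinase that inhibits the myosin phosphatase, at -0.29 on the log2 scale (SE 0.06, adjusted p = 0.0103). The smooth muscle myosin heavy chain Myh11 had 9124, 9043, 9098, 9086 and 9032 CPM in libraries labelled KO, against 9616, 8714, 9701, 7229 and 7949 CPM in libraries labelled WT, with an adjusted p of 0.6202. Per kilobase of exon it ranked 23 among all genes in the group labelled KO and 29 in the group labelled WT. Of 14 cofactors and repressors of SRF, 3 rose and 3 fell, led by Fhl2, a LIM cofactor of SRF (0.72, adjusted p = 0.000384), and Prrx1, a homeobox factor (0.26, adjusted p = 0.00353). Those that fell were Mkl1, Fhl1 and Gata6 (-0.32, -0.44 and -0.50, adjusted p = 0.0396, 0.0126 and 0.00398). The summed level of this list, with Fhl1 its most abundant gene, was 3332 to 3407 CPM in libraries labelled KO and 3587 to 4746 CPM in libraries labelled WT. Of 33 other genes of actin filaments and dense plaques, 5 rose and 2 fell, led by Flnc, the muscle filamin (-0.61, adjusted p = 0.00377), and Mylk4, a kinase related to Mylk (0.30, adjusted p = 0.00398). Rock2, Fhl2, Prrx1, Fhl1, Gata6, Flnc and Mylk4 were called also without each single library, while the call of Mkl1 was lost without any 1 of 8 libraries. With the libraries labelled KO as 1 sample, 0 genes of these lists passed, and 0, 2 and 2 had an unadjusted p below 0.05. Median log2 differences were 0.06, 0.05 and 0.08 in these lists, beside 0.07 for the members and -0.02 for all tested genes.

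Fibroblasts also express Cald1, Tpm4 and Vim. Of 15 adventitial fibroblast markers, 7 rose and 0 fell in the 5 against 5 test, and the others did not pass. For this and the next lists, 6.84% of all tested genes were higher and 7.43% lower in that test. A positive difference was found in 12 fibroblast markers, beside 45.8% of all tested genes. Their summed level was 5827 to 5893 CPM in libraries labelled KO and 4841 to 5279 CPM in libraries labelled WT. None was at 0 in all libraries. Dcn, the gene of decorin, was the most abundant of them. Dcn had 1557, 1532, 1505, 1520.3 and 1528 CPM in libraries labelled KO, against 967, 1283, 1158, 1274 and 1257 CPM in libraries labelled WT. Of 10 macrophage markers 2 rose and 0 fell, at 374 to 385 CPM in libraries labelled KO and 260.3 to 468 CPM in libraries labelled WT, and of 7 tested lymphocyte markers 4 rose and 0 fell, with summed levels of 276 to 281 CPM in libraries labelled KO and 9.74 to 27.3 CPM in libraries labelled WT for the lymphocyte list. All 5 red cell markers fell, at 19.2 to 21.3 CPM in libraries labelled KO and 65.7 to 327 CPM in libraries labelled WT. In the summed fit, 0 fibroblast, 0 macrophage, 1 lymphocyte (Ighm) and 0 red cell markers passed, while 3, 2, 4 and 4 had an unadjusted p below 0.05. In the endothelial and adipocyte lists, 0 of 10 genes each passed in the 5 against 5 test with edgeR. There, 1 endothelial and 0 adipocyte genes had an unadjusted p below 0.05. DESeq2 called 0 and 0 and limma-voom 5 and 3, beside 6477 of all 15710 tested genes called by limma-voom. The most abundant genes of these lists were Pecam1 for endothelium, Lyz2 for macrophages, Ighm for lymphocytes, Fabp4 for adipocytes, Ncam1 for nerve and Hbb-bs for red cells. The part of these cells in the differences of the contractile genes was not tested.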

How the data were processed

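RNA sequencing of mouse aorta gave 10 libraries, grouped by their titles into 5 labelled KO and 5 labelled WT. The authors deposited whole-number read counts per gene for each library, with 35667 Ensembl genes. Bowtie 0.12.2 and the builds mm9 and mm8 stand in the submitters' processing notes, but 35519 of the identifiers matched GENCODE M21, which is on GRCm38. Which counting tool, annotation and strand option were used is not given in the sources used here. The member genes and the lists were chosen with earlier results of these data known.

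Counts were tested with edgeR 4.0.16 in R 4.3.3 by its quasi-likelihood F test, with robust estimation, TMM factors and filterByExpr (minimum count 10, minimum total 15), without a covariate, over all tested genes. The standard error is the log2 difference over the square root of F. The same fit was made with the counts of the libraries labelled KO summed into 1 sample. Values per library are given for members past the threshold and for Acta2, Tagln, Cnn1, Myocd, Srf, Des and Vim, other members mostly by range or mean, and in the pathway lists for the 2 genes of smallest p past the threshold. Values of Ppp1r14a, Pdlim7, Myh11, Myh6 and Ovgp1 per library were added after they were seen, as were the differences of Mkl1, Fhl1 and Gata6. Alternatives were RLE size factors, no filter, leaving out mitochondrial transcripts, DESeq2 1.42.0, limma-voom 3.58.1 with sample weights, a replicate block, leaving out each library, and leaving out WT 1 and WT 3.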

Additional observations from a re-analysis of the deposited data

Results flagged for a closer look

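Of 98 groups of 5 values examined, 4 held a library that stood far from the other libraries of its group, and chance gives about 1 in 20. Nexn was lowest in KO 1 at 257 CPM, with the nearest library labelled KO at 269 CPM. The ratio of Actg2 over Acta2 was lowest in KO 1 at 0.0174, with the nearest library labelled KO at 0.0179. Tpm4 was lowest in WT 3 at 231 CPM, with the nearest library labelled WT at 288 CPM. Mylk was highest in WT 1 at 1552 CPM, with the nearest library labelled WT at 1472 CPM.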

How the results depend on the processing

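The 5 against 5 test called 2242 genes and 6 members. Limma-voom called 6477 and 23, the fit without WT 1 and WT 3 called 4386 and 17, and the fit with the libraries labelled KO summed called 7 and 0. Leaving out 1 library gave 1287 to 2678 genes and 4 to 8 members. In the summed fit, leaving out 1 library labelled WT, an alternative chosen after seeing the data, gave 1 to 5 genes. Without the low count filter, 1294 genes were higher and 676 lower, against 1075 and 1167 with it. Members with all libraries labelled KO above all labelled WT numbered 6, and 18 without WT 1 and WT 3, also an alternative chosen after seeing the data. Of these, 9 were above by that choice itself, since all libraries labelled KO had lain between WT 1 and WT 3 and the others labelled WT.

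Same-numbered libraries did not deviate together (correlations -0.0397 to 0.0424), and 2 of 5 libraries labelled KO correlated best with their own number. With a replicate block, 1319 genes and 4 members were called, Mustn1 (adjusted p = 0.0546) and Tagln (0.0941) being lost. Sncg, Mylk, Cald1 and Synm were called in 17 of 18 alternatives, all but the summed fit, Mustn1 in 8 and Tagln in 4. Those 17 alternatives all count the near copies labelled KO as separate samples.

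The sign turned in members near 0, and the cause was not tested. With limma-voom the log2 difference was 0.0873 for Tpm2, 0.104 for Ppp1r12a, 0.12 for Pdlim7, 0.0427 for Srf and 0.136 for Crip1. Without WT 1 and WT 3 it was 0.116 for Tpm2, 0.18 for Ppp1r12a, 0.31 for Pdlim7, 0.18 for Srf and 0.0854 for Crip1. Ppp1r12a was at 0.0194 without the filter, Flna at -0.0034 without mitochondrial transcripts, and Crip1 at 0.0024 with RLE factors, 0.0453 without the filter, 0.0085 with DESeq2 and 0.0045 with the block. Leaving out 1 library gave ranges of -0.170 to 0.0035 for Actg2, -0.160 to 0.0074 for Tpm2, -0.108 to 0.0527 for Ppp1r12a, -0.0812 to 0.273 for Ppp1r14a, -0.0441 to 0.0464 for Vim, -0.0350 to 0.161 for Pdlim3, -0.219 to 0.0497 for Pdlim7, -0.0265 to 0.0511 for Flna, -0.157 to 0.0329 for Srf and -0.0660 to 0.0498 for Crip1.

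Every member but Casq2 had at least 491 counts in each library, so depth bears mainly on Casq2. The near copies among libraries labelled KO bear on every call of the 5 against 5 test.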

Other observations

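Genes listed as marks of smooth muscle cells outside the contractile state were called in both directions. Of 10 such genes, 2 rose and 1 fell in the 5 against 5 test, beside 6.84% of all tested genes higher and 7.43% lower. Every library labelled KO lay above every library labelled WT in 5 of the 10, beside 7.38% of all tested genes. All lay below in 0, beside 7.22%. A positive difference was found in 6, and the median was 0.23, against -0.02 over all tested genes. Their summed level was 10363 to 10424 CPM in libraries labelled KO, against 5613, 10214, 7146, 11600 and 10356 CPM in WT 1 to 5. Myh10, the gene of non-muscle myosin heavy chain IIB, had 549, 552, 551, 543 and 555 CPM in libraries labelled KO, against 477, 380.1, 443, 337 and 359.7 CPM in libraries labelled WT. Its log2 difference was 0.46 (SE 0.09, adjusted p = 0.00604), and it was called without each single library. Spp1, the gene of osteopontin, had a log2 difference of 0.88 (adjusted p = 0.03697). Its call was lost without any 1 of the libraries labelled KO, without WT 1 and without WT 2 (adjusted p 0.0601 to 0.0813). Lgals3, the gene of galectin 3, had a log2 difference of -0.86 (adjusted p = 0.0471). Its call was lost without any 1 of the libraries labelled KO, without WT 2, WT 4 and WT 5 (adjusted p 0.0797 to 0.106). Mgp, the most abundant of the list over all libraries and the gene of matrix Gla protein, had 4742, 4785, 4756, 4749 and 4705 CPM in libraries labelled KO, against 3027, 6761, 3826, 6171 and 5772 CPM in libraries labelled WT. Fn1, the gene of fibronectin, had 4796, 4749.9, 4777, 4747 and 4796 CPM in libraries labelled KO, against 1913, 2723, 2692, 4645 and 3819 CPM in libraries labelled WT, where the groups did not overlap (adjusted p = 0.0642). In the summed fit, 0 of these genes passed, and 0 had an unadjusted p below 0.05. Myh10, Spp1, Lgals3 and Fn1 were named after their values were seen. Counts from bulk tissue do not show which cells made these transcripts, and the part of other cells was not tested.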
